A study of Mus musculus with 2 samples.

Results

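The 4349 DNase I peaks described here were strong in replicate 1 of mouse midbrain and were overlapped by no peak of replicate 2. They were chosen by 3 criteria: a peak value above 20 in replicate 1, a position on chromosomes 1 to 19, and no base in common with any replicate 2 peak. They made up 5.18% of the 83901 strong autosomal peaks of replicate 1, and are called peaks alone below. The other 79552, called shared peaks, overlapped a replicate 2 peak. The replicate 1 list held 710099 different peaks in all and the replicate 2 list 267922. DNase-seq had been run on the midbrain of healthy B6NCrl mouse embryos at 14.5 days of development, from pooled males and females, and both samples belong to this 1 group. The 2 biological replicates are separate tissue samples under 1 donor entry, so there was no treated or mutant group and no test between conditions. The peak value is the authors' whole-number signal, without a stated scale, and it served only to rank peaks within a replicate.

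DNase I cuts chromatin most readily where nucleosomes have been displaced, so clusters of cuts mark promoters, enhancers and insulators that are in use. A hotspot is a region of any width with more cuts than its surroundings, and a peak is the short window of densest cutting inside it, so a broad hotspot can hold several peaks. Active promoters carry an open stretch just upstream of the transcript start and well-positioned nucleosomes on both sides, and many of them lie in CpG islands, which are rich in the CpG dinucleotides that the rest of the mammalian genome has largely lost. The midbrain of the mouse embryo forms the tectum and the tegmentum, including the dopamine neurons of the ventral midbrain, under regulators such as Otx2, the engrailed genes and Zic proteins.

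Examples of both kinds of peak that made up the 4349 are shown as sequence. The first 3 pairs are strong promoter peaks and the replicate 2 peak beside each. The plus strand is given 5′ to 3′, from RefSeq GRCm38.p6 (mm10), in lower case, with capitals marking exact matches on either strand to any of 28 short motifs searched, which include the CCAAT box of NF-Y (CCAATCA), the GC box of SP and KLF proteins (GGGCGGG) and an E-box of bHLH proteins (CAGATG).
Gsk3b, replicate 1 peak alone, chr16:38089256-38089405: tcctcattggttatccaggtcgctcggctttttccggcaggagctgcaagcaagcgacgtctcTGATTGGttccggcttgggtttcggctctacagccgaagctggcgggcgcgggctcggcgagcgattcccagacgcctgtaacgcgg
Gsk3b, nearest replicate 2 peak, chr16:38088976-38089125: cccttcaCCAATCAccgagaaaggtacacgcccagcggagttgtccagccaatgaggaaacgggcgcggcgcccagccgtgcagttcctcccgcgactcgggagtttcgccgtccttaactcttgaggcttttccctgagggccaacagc
G3bp1, replicate 1 peak alone, chr11:55469336-55469485: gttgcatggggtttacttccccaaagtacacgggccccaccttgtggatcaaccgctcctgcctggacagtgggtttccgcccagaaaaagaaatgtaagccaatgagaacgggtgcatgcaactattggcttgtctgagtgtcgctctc
G3bp1, nearest replicate 2 peak, chr11:55469496-55469645: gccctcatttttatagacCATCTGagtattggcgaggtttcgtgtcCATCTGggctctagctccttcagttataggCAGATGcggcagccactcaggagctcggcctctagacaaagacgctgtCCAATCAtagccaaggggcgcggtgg
Zbtb2, replicate 1 peak alone, chr10:4386796-4386945: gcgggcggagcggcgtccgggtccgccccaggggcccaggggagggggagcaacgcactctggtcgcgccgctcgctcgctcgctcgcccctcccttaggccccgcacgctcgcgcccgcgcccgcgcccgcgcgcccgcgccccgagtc
Zbtb2, nearest replicate 2 peak, chr10:4386956-4387105: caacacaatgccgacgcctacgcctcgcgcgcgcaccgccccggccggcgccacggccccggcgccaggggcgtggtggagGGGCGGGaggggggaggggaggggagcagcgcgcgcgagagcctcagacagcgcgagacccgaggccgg

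In the Gsk3b and G3bp1 pairs the 2 replicates marked adjacent stretches of 1 promoter. In the Zbtb2 pair another replicate 1 peak also overlapped the replicate 2 interval. The Gsk3b pair holds a CCAAT box match in each interval, whereas in the G3bp1 and Zbtb2 pairs the replicate 1 interval holds no match and the replicate 2 interval has 4 and 1. The Kmt5c pair, of a higher value than Zbtb2 and not shown as sequence, goes the other way. It has 3 matches in the replicate 1 interval and 1 in the replicate 2 interval. The Zbtb2 intervals carry 28 CpG in the replicate 1 peak and 24 in the replicate 2 peak, as in a CpG island. The other 3 sequences are replicate 1 peaks that no replicate 2 peak or hotspot overlapped. These 3 lie near regulators of the developing brain, and the highest such peak, nearest to Rhcg, is not shown. The nearest replicate 2 hotspot was 22 bp away at Zic4, 330 bp at Nr2f2 and 2475 bp at Ebf3.
Zic4, replicate 1 peak alone, chr9:91386856-91387005: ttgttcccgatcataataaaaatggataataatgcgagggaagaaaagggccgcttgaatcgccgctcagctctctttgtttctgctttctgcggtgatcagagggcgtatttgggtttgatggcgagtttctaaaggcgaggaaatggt
Ebf3, replicate 1 peak alone, chr7:137256056-137256205: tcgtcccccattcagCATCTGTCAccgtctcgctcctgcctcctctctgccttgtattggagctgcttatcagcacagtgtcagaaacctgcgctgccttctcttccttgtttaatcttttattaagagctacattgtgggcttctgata
Nr2f2, replicate 1 peak alone, chr7:70351316-70351465: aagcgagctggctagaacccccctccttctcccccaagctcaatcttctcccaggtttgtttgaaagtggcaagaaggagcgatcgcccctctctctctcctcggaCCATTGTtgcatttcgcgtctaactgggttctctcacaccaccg

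The Zic4 interval holds none of the 28 motifs, the Ebf3 interval has an E-box match that overlaps a MEIS match (TGACAG, the site of MEIS and PBX proteins), and the Nr2f2 interval has a SOX match (ACAATGG). A match describes the letters only and is not evidence that a factor was bound.

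The strong peaks of replicate 1 alone mostly lay inside open chromatin that replicate 2 also showed. A replicate 2 hotspot overlapped 4061 of the 4349 (93.4%, exact binomial interval 92.6 to 94.1), and it covered the whole peak in 3911 (89.9%, 89.0 to 90.8). For 3902 of these 4061 peaks the replicate 2 hotspot stood at the cap of 100 on the −log10 q scale (96.1%). All exact binomial intervals here are Clopper-Pearson intervals at 95%, and they cover counting over the peaks of this 1 sample, which are not biological replicates. Weaker replicate 1 peaks without a replicate 2 peak, those of value 20 or less, numbered 513691, and a replicate 2 hotspot overlapped 3.78% of them.

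The nearest replicate 2 peak was close. Its gap, the number of bases between the 2 intervals, had a median of 130 bp, with quartiles of 70 and 230 bp and a 90th percentile of 370 bp. A replicate 2 peak lay within 150 bp of 2454 peaks (56.4%, 54.9 to 57.9), within 500 bp of 4078 (93.8%) and within 1000 bp of 4186 (96.3%, 95.6 to 96.8). For the 513691 weaker peaks the median gap was 3790 bp, and 21.4% had a replicate 2 peak within 1000 bp. Because the peaks of both lists are 150 bp wide and start on the same grid of 20 bp, gaps take values of 10 bp, 30 bp and so on. The smallest gap, 10 bp, was found for 385 of the peaks alone and 30 bp for 353, and on the other side of the rule 492 shared peaks overlapped their replicate 2 peak by 10 bp only and 602 by 30 bp. Shared peaks had a median overlap of 130 bp.

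**Figure D1:**
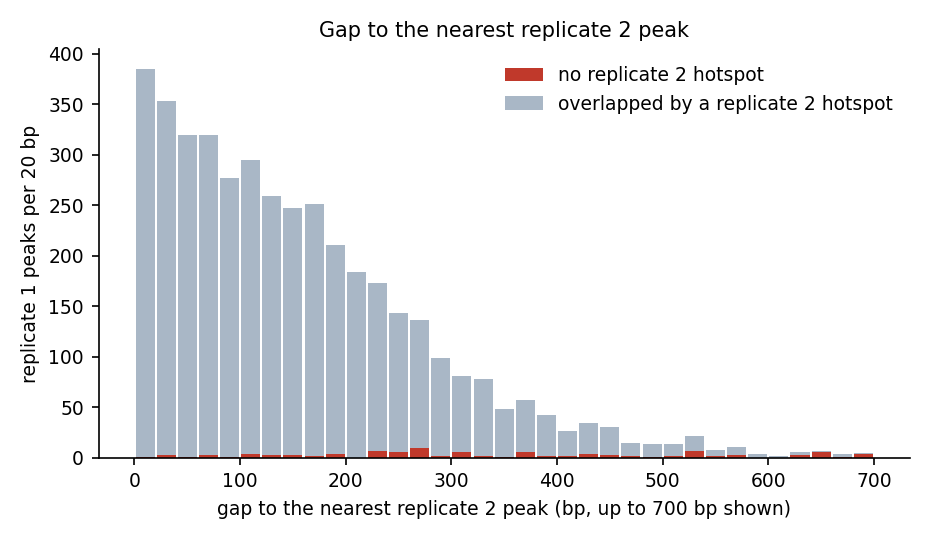
Number of strong replicate 1 peaks alone (vertical axis) by the gap in bp to the nearest replicate 2 peak (horizontal axis, up to 700 bp), split into those with a replicate 2 hotspot (grey) and those without one (red). The tallest bar is the smallest gap, 10 bp, with 385 peaks, and the peaks without a hotspot are few at every gap shown.

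The gap went with the hotspot. This link is largely built into the lists, since a replicate 2 hotspot here nearly always held a replicate 2 peak. Of the 4061 peaks alone with such a hotspot, 1 had a hotspot that held no peak. Of the 1624 peaks with a gap above 150 and up to 500 bp, a replicate 2 hotspot overlapped 96.3%, and of the 108 with a gap above 500 and up to 1000 bp it overlapped 57.4%. None of the 108 peaks with a gap above 1000 and up to 5000 bp, and none of the 55 with a gap above 5000 bp, had a replicate 2 hotspot. Median values in replicate 1 were 28 for gaps of up to 150 bp and 22 for gaps above 1000 bp.

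The neighbourhoods were of 2 kinds, told apart by the nearest replicate 2 peak. For 3225 of the 4349 (74.2%, 72.8 to 75.5), that replicate 2 peak was overlapped by another replicate 1 peak. The gap in these had a median of 170 bp and ran up to 38590 bp, and 72.6% of them had a stronger peak in the same replicate 1 hotspot. For the other 1124 (25.8%) the nearest replicate 2 peak had no replicate 1 peak on it either. In these the gap had a median of 50 bp and ran up to 21470 bp, 932 had a gap of at most 150 bp (82.9%), and 49.8% had a stronger peak in the hotspot.

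Broad, crowded hotspots held most of them. The replicate 1 hotspot around a peak alone had a median width of 1064 bp, against 414 bp around shared peaks weighted to the same peak values. This weighting, used throughout, gives each whole-number value of replicate 1 the share it has among the peaks alone, since those have lower values (median 27) than all shared peaks (median 38). Another replicate 1 peak lay in the same hotspot for 76.5% of the peaks alone (75.2 to 77.7) and for 29.3% of the weighted shared peaks (SE 0.195). A stronger one was present for 66.7% of the peaks alone and for 15.4% of the weighted shared peaks (SE 0.157). Read the other way, 1.96% of strong peaks that were the single peak of their hotspot were without a replicate 2 peak, and the share was 9.23% with 2 peaks in the hotspot, 11.6% with 3, 12.3% with 4 and 12.1% with 5 or more.

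Promoters were the most frequent location. The centre of 2241 of the 4349 peaks lay within 1000 bp of the start of a protein-coding transcript (51.5%, 50.03 to 53.0), against 17.8% of the weighted shared peaks (SE 0.161) and 28.6% of the shared peaks as they stand. Introns held 21.7% of the peaks alone and 37.6% of the weighted shared peaks (SE 0.215), and intergenic sequence 24.1% and 41.2% (SE 0.218). Exons away from starts held 2.67% of the peaks alone (2.21 to 3.19) and 3.30% of the weighted shared peaks. The 2241 peaks were near the starts of 2027 genes, of which 192 had more than 1 and none more than 4. The genes with 4 were Mapk11, a stress-activated protein kinase, Nol4, Tcf4, a bHLH factor of developing neurons, and Zfp219, named here after their counts were seen. The number of strong peaks near their starts is not given here, so a count of 4 is not shown to be unusual.

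The share without a replicate 2 peak depended on both the value and the position. Among strong peaks of value 21 to 25, 25.6% of those near starts (24.1 to 27.1) and 7.16% of those farther away (6.76 to 7.58) had no replicate 2 peak. At values of 41 to 60 the shares were 7.59% near starts and 1.19% farther away, and at 61 to 100 they were 1.98% and 0.491%. Above 100, 10 of 5424 peaks near starts (0.184%, 0.0884 to 0.339) and 1 of 493 elsewhere (0.203%, 0.00514 to 1.12) had none, so the intervals overlap there. At the threshold itself, 512 of the 4415 autosomal peaks of value 21 were without a replicate 2 peak (11.6%), and 604 of the 4923 peaks of value 20, just outside the rule (12.3%).

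**Figure D2:**
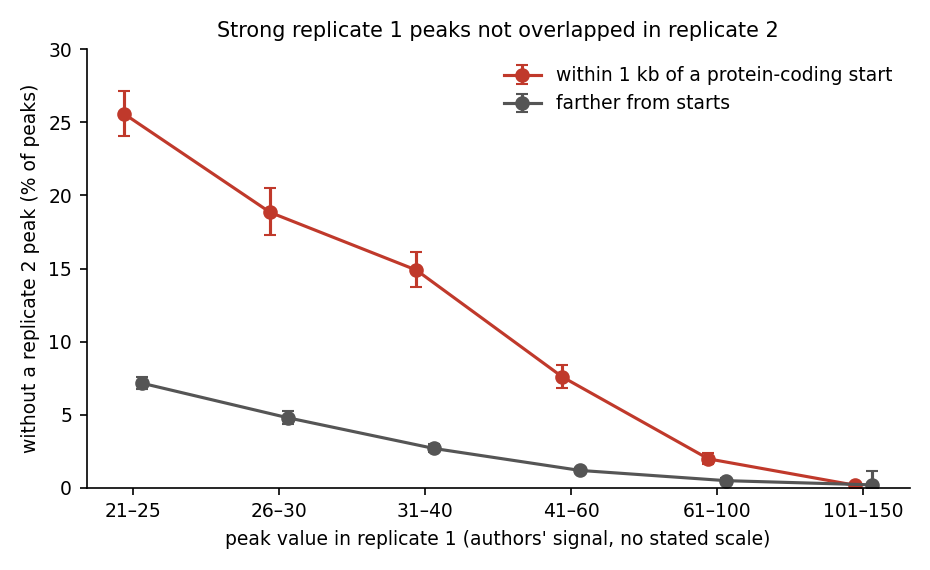
Percent of strong autosomal replicate 1 peaks without an overlapping replicate 2 peak (vertical axis) by class of replicate 1 peak value (horizontal axis), for peaks within 1 kb of a protein-coding start (red) and farther away (grey). Bars are 95% exact binomial intervals, and the curves run from 25.6% and 7.16% at values of 21 to 25 to 0.184% and 0.203% above 100.

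Around the start, the peaks alone lay on both sides, more often downstream. Downstream of the start were 1476 of the 2241 (65.9%, 63.9 to 67.8), against 60.2% of the weighted shared peaks near starts (SE 0.493). Downstream of the nearest replicate 2 peak were 1254 of the 2241 (56.0%, 53.9 to 58.03). The median position of the peaks alone was 228 bp downstream of the nearest start, with quartiles of 148 bp upstream and 427 bp downstream. The weighted shared peaks near starts had a median of 101 bp downstream, and the replicate 2 peaks nearest to the peaks alone a median of 8 bp upstream. From 100 to just under 500 bp downstream lay 906 of the 2241 peaks alone (40.4%, 38.4 to 42.5) and 25.9% of the weighted shared peaks (SE 0.448). Within 100 bp of the start the order was the other way round, with 300 of the peaks alone (13.4%, 12 to 14.9) and 26.1% of the weighted shared peaks (SE 0.422). From 100 to just under 500 bp upstream the shares were 17.4% (15.9 to 19.04) for the peaks alone and 13.5% (SE 0.346) for the weighted shared peaks. The rule itself partly sets these differences, since a peak alone may not overlap a replicate 2 peak and a shared peak must. Of the nearest replicate 2 peaks, 22% had their centre in the 100 bp upstream of the start. The centre fell in an exon for 30.6% of the peaks alone near starts (28.7 to 32.6) and for 30.8% of the weighted shared ones (SE 0.467).

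**Figure D3:**
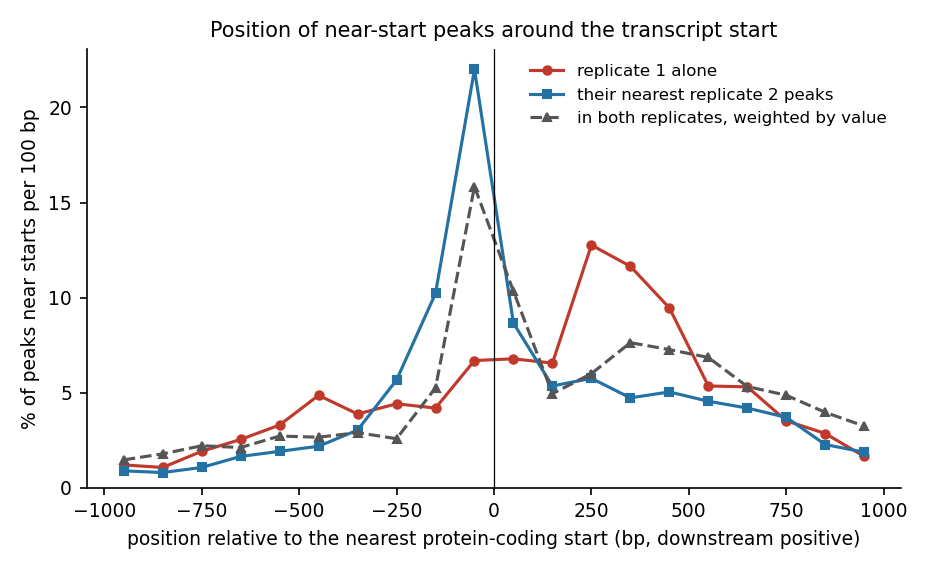
Percent of near-start peaks per 100 bp (vertical axis) by position relative to the nearest protein-coding start (horizontal axis, downstream positive), for peaks of replicate 1 alone (red), the replicate 2 peak nearest to each (blue) and peaks in both replicates weighted to the same values (grey). The red line is highest from 200 to 300 bp downstream, at 12.8%, and the blue and grey lines in the 100 bp upstream of the start, at 22% and 15.8%.

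The 12 highest values among the peaks alone ran from 94 to 132, and 11 of these 12 lay near a start. Gsk3b (ENSMUSG00000022812.14), which encodes a kinase of the Wnt and insulin pathways, had the highest. Its peak at chr16:38089256-38089405 had a value of 132 and a centre 330 bp downstream of a start, 130 bp from a replicate 2 peak of value 148. Its replicate 1 hotspot of 2754 bp held 4 peaks, the strongest of the others at 133. G3bp1, an RNA-binding protein of stress granules, had the next, at chr11:55469336-55469485. This peak of value 130 lay 274 bp upstream of a start, was the single peak of a replicate 1 hotspot of 1392 bp, and stood 10 bp from a replicate 2 peak of value 149. In both pairs the replicate 2 interval had no replicate 1 peak on it.

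Kmt5c, a histone lysine methyltransferase, had a peak of value 129 at chr7:4739896-4740045, 144 bp upstream of a start and 90 bp from a replicate 2 peak of value 145. Setd5, a SET-domain chromatin protein, had a peak of value 123, and Kdm7a, a histone demethylase, one of 113, with gaps of 30 and 10 bp to replicate 2 peaks of 145 and 137. Zbtb2, a zinc finger transcription factor, had a value of 125 and a gap of 10 bp to a replicate 2 peak of 147. In this last case another replicate 1 peak overlapped the replicate 2 peak, and the strongest other replicate 1 peak of the hotspot had a value of 121.

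Pja2, a RING ubiquitin ligase, had a value of 125 with a gap of 30 bp, and Napa, an attachment protein of membrane fusion, 111 with a gap of 110 bp. Limk1, a kinase that controls cofilin and the actin cytoskeleton, and Thap2 each had a value of 101, with gaps of 130 and 190 bp. Cox20, an assembly factor of cytochrome c oxidase, had 94 with a gap of 290 bp. Susd4 had the same value with a gap of 70 bp and, by its higher coordinate, came just after these 12, as the last of the 12 highest near starts. Irf2bpl was the nearest gene to the 1 high peak away from starts, of value 105 at chr12:86824216-86824365, which lay 60507 bp downstream of the start in intergenic sequence, 90 bp from a replicate 2 peak of 145. Of the 12 highest, 6 had a nearest replicate 2 peak with no replicate 1 peak on it, 10 had a gap of at most 130 bp, and the 12 replicate 2 hotspots around them were all at the cap. Cox20 differed from the rest in that its replicate 2 neighbour had a value of 85, against 137 to 149 for the others.

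Base composition differed from that of the shared peaks as well. The peaks alone had a median GC share of 55.3% and a median of 5 CpG per 150 bp, against 51.3% and 3 CpG for the weighted shared peaks. At least 5 CpG were present in 56.1% of the peaks alone (54.6 to 57.6) and in 31.4% of the weighted shared peaks (SE 0.199). The weighting is by value only, and 51.5% of the peaks alone were near a start, against 17.8% of the weighted shared peaks. Whether composition differed among peaks at the same distance from starts was not tested. Yet the 4061 peaks alone inside a replicate 2 hotspot had medians of 56% GC and 6 CpG, below the 60% GC and 8 CpG of their nearest replicate 2 peaks. These are medians over each set, and the 2 intervals of a pair were not compared one by one. In the Gsk3b and Zbtb2 pairs the replicate 1 interval has more CpG, 17 against 13 and 28 against 24, and in the G3bp1 pair fewer, 5 against 7.

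Repeat-masked sequence was no more frequent in the peaks alone than in the weighted shared peaks. At least 50% of the bases were masked in 84 of the 4349 (1.93%, 1.54 to 2.39), against 2.50% of the weighted shared peaks (SE 0.0720) and 1.85% of the shared peaks as they stand. Some masked base was present in 40.7% of the peaks alone and in 41.0% of the weighted shared peaks (SE 0.218). No peak alone was masked over its whole length (0 of 4349, which allows up to 0.0690% by 3 counts and up to 0.0848% by the exact interval), and 0.122% of the weighted shared peaks were (SE 0.0171). Simple tandem runs of at least 20 bases were found in 117 of the peaks alone (2.69%, 2.23 to 3.22) and in 1.82% of the weighted shared peaks (SE 0.0591). Reads that map to several places were looked for through words of 31 bases: in 17 peaks alone (0.391%, 0.228 to 0.625) at least 50% of these words occurred more than once in the genome, against 0.530% of the weighted shared peaks (SE 0.0337). The peak with the most repeated words, singled out after these shares were seen, was an intergenic one of value 23 at chr16:76866096-76866245, with 96.7% of its words in more than 1 copy and a tandem run of 67 bases.

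Within the 4061 pairs inside a replicate 2 hotspot, 14 of the 28 motifs were more frequent in the neighbouring replicate 2 peak than in the peak alone, and 14 were less frequent. The GC box GGGCGGG was found in 10.7% of these peaks alone and in 21.1% of their replicate 2 neighbours. Over all 4349 peaks alone it was in 437 (10.05%, 9.17 to 10.98), against 5.84% of the weighted shared peaks and 11.4% of all strong peaks. The ETS site CCGGAAG was in 2.22% of the peaks alone and 4.97% of their neighbours, and for the CCAAT box CCAATCA the shares were 1.63% and 3.40%. The E-box CAGATG went the other way, with 10.5% of the peaks alone and 8.18% of their neighbours, as did CAGCTG with 11.4% and 10.5%, the NFI site TTGGCA with 7.24% and 6.80%, and the RUNX site TGTGGTT with 2.09% and 1.38%. No intervals were computed for these shares over the 4061 pairs, so small differences such as those of CAGCTG and NFI are not told apart from counting noise.

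Away from starts the peaks alone were the poorer in motifs. There the interval of their share lay below the weighted shared value for 11 of the 28 motifs and above it for 1, the GC box, and near starts it lay below for 6 and above for 1, the RUNX site. Some motifs are parts of related sites, and matches may overlap. The RFX site GTTGCCA was present in 2.23% of the distal peaks alone (1.64 to 2.95) and in 4.79% of the distal shared peaks weighted to their values (SE 0.111). The 2 CTCF core forms, AGGGGGCGC and AGGTGGCAG, had 0.237% (0.0771 to 0.553) and 0.569% (0.294 to 0.992) in the distal peaks alone, against 1.02% and 1.45% in the distal weighted shared peaks (SE 0.0477 and 0.0576). The NFI site had 10.1% (8.85 to 11.5), against 13.1% (SE 0.180). For the homeobox site TAATTA the shares were 4.74% (3.88 to 5.74) and 5.98% (SE 0.128), and for the AP-1 site TGANTCA 3.37% (2.64 to 4.23) and 4.87% (SE 0.116).

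A small remainder had neither a replicate 2 peak nor a replicate 2 hotspot. These 288 peaks, called hotspot-free below, were 0.343% of the strong autosomal peaks. Their values ran from 21 to 41 with a median of 22, and 250 of them (86.8%) had values of 21 to 25, next to the threshold. Their median gap to the nearest replicate 2 peak was 1370 bp, and 125 of them still had one within 1000 bp (43.4%, 37.6 to 49.3). The nearest replicate 2 hotspot was at a median of 1290 bp. In replicate 1 their hotspots were narrow, with a median of 308 bp, and 221 of the 288 were the single peak of the hotspot (76.7%, 71.4 to 81.5). The −log10 q of these replicate 1 hotspots had a median of 4.61 and was at the cap in 114 (39.6%, 33.9 to 45.5), against 41.9% of the shared peaks weighted to their values (SE 0.349).

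Hotspot-free peaks lay in introns and between genes, not at promoters. Introns held 176 of the 288 (61.1%, 55.2 to 66.8), against 40.1% of the shared peaks weighted to their values (SE 0.354). Intergenic sequence held 97 (33.7%, 28.2 to 39.5), against 42.2% (SE 0.356). Only 8 were near a start (2.78%, 1.21 to 5.40), against 14.4% (SE 0.249), and 7 were in exons away from starts. At least 5 CpG were found in 19.1% (14.7 to 24.1), against 26.4% (SE 0.314). Repeats were again rare, with 1 of the 288 masked over at least 50% of its bases (0.347%, 0.00879 to 1.92), against 2.96% (SE 0.123), and in none were at least 50% of the 31-base words repeated in the genome (0 of 288, which allows up to 1.04% by 3 counts and up to 1.27% by the exact interval). Of the 28 motifs, the interval lay below the share in shared peaks weighted to their values for 1, the GC box, with 1.04% (0.215 to 3.01) against 4.06% (SE 0.139). It lay above for 1, the YY1 site AAGATGGC, with 2.78% (1.21 to 5.40) against 0.873% (SE 0.0668), and held that share for the other motifs. The GC box and YY1 shares rest on 3 and 8 peaks, and the intervals are not adjusted for the 28 motifs looked at.

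**Figure D4:**
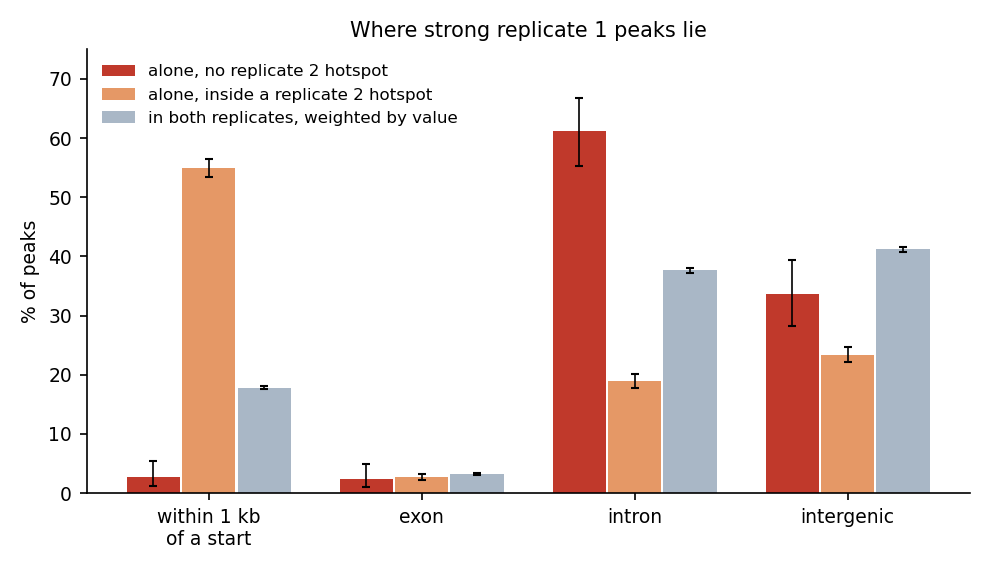
Percent of peaks (vertical axis) within 1 kb of a protein-coding start, in exons, in introns and between genes, for hotspot-free peaks (red, n = 288), peaks alone inside a replicate 2 hotspot (orange, n = 4061) and peaks in both replicates weighted to the values of all 4349 peaks alone (grey, n = 79552). Bars are 95% exact binomial intervals, or 1.96 SE for the weighted shares. Near starts the shares are 2.78%, 55.0% and 17.8%, and in introns 61.1%, 18.9% and 37.6%.

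The 8 highest hotspot-free values were 30 to 41. Rhcg, an ammonia transporter, was nearest to the highest, a peak of value 41 at chr7:79532096-79532245, which lay 62758 bp from its start and 250 bp from a replicate 2 peak of 108. Zic4, a zinc finger factor of the dorsal neural tube, followed with 38, and Ebf3, a factor of neuronal differentiation, with 35 in an intron. The orphan nuclear receptor gene Nr2f2, the LIM homeobox gene Lhx1 and G430095P16Rik were nearest to peaks of 31. En2, an engrailed gene of the midbrain and the isthmus, had a peak of 30 at chr5:28180256-28180405, 14637 bp downstream of its start. This peak stood 69 bp from a replicate 2 hotspot and 510 bp from the nearest replicate 2 peak, of value 33. Mtss1, an actin-binding membrane protein, had a peak of 30 in an intron, 7550 bp from the nearest replicate 2 peak. The most isolated of all 4349, singled out after the gaps were seen, was an intergenic peak of value 22 at chr3:42753216-42753365, 38590 bp from the nearest replicate 2 peak.

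Near starts, the 8 hotspot-free peaks, whose genes are named here after their values were seen, had values of 21 to 26. The highest was 738 bp upstream of a start of Tbx3, a T-box factor, 550 bp from a replicate 2 peak of value 135. Zic4 had 2 of them, of value 22 each, 971 bp upstream and 9 bp downstream of transcript starts. The others were at Itsn1, an endocytic scaffold protein (23), Ptprj, a receptor tyrosine phosphatase (22), and C77080, the hexokinase gene Hk1 and the calcium channel subunit gene Cacnb1 (21 each).

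Most hotspot-free peaks were scattered: the 288 had 221 nearest genes, and the 15 genes with 3 or more held 59 of them. Zic4 had 8, all in a stretch of 10390 bp at chr9:91377596-91387985, where replicate 1 had 19 peaks, 13 of them strong, and replicate 2 had 6, with values of 79 to 124. The replicate 2 peaks lay between the hotspot-free ones, at gaps of 130 to 1110 bp, and the 8 values in replicate 1 were 21 to 38. Ebf3 had 7 in 42470 bp, with values of 22 to 35 and gaps of 70 to 2470 bp, and over that stretch replicate 2 had 28 peaks. Nr2f2 had 5, with values of 21 to 31, in 8550 bp of intergenic sequence from 8530 to 16930 bp downstream of its start, where replicate 2 had 3 peaks. Adgrl2, an adhesion receptor of synapses, also had 5, but over 991190 bp. Among strong peaks these were 8 of 31 at Zic4, 7 of 51 at Ebf3, 5 of 54 at Nr2f2 and 5 of 64 at Adgrl2. From the values and positions of those strong peaks 0.228, 0.245, 0.352 and 0.481 would be expected. The share over all strong peaks was 0.343%, and these genes were picked for their counts.

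**Figure D5:**
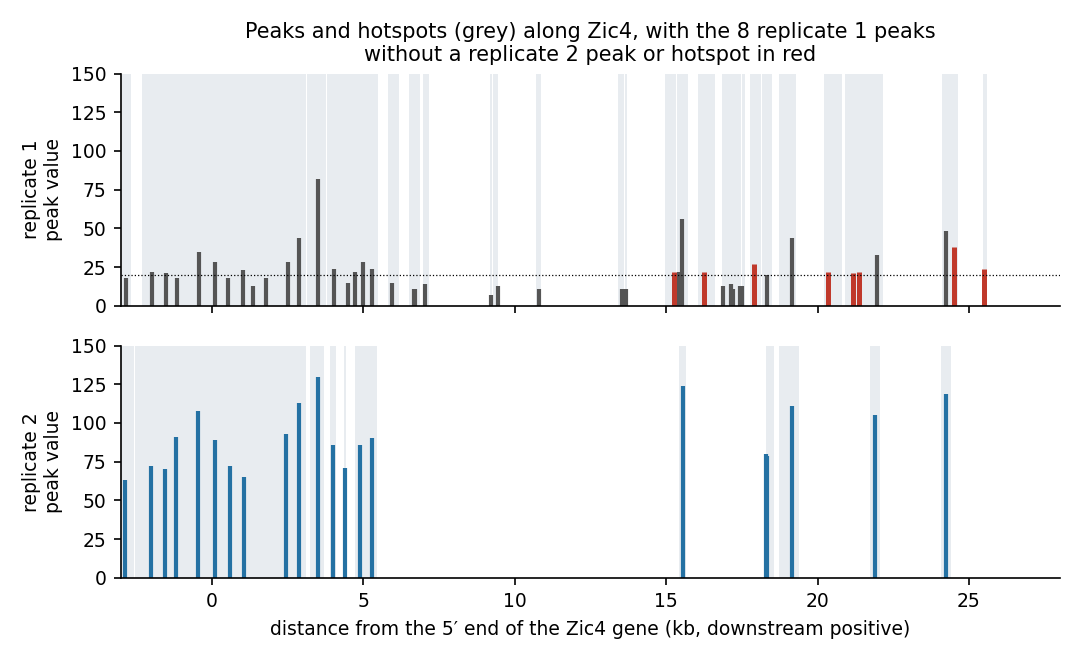
Peak values (vertical axis, authors' signal) of replicate 1 (upper panel) and replicate 2 (lower panel) by distance in kb from the 5′ end of the Zic4 gene (horizontal axis), with hotspots shaded grey and the 8 hotspot-free peaks in red. The dotted line marks a value of 20, and the red peaks, of 21 to 38, stand beside sites that both replicates share, where replicate 2 values are 79 to 124.

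All 4349 peaks together were widely scattered. They had 3243 nearest protein-coding genes, of which 2535 had 1 peak and 36 had 5 or more. Auts2, a nuclear protein linked to neurodevelopment, had the most, 12 of 129 strong peaks, where 6.04 would be expected from their values and positions. Ebf3 had 10 of 51, with 2.67 expected. Then came 5 genes with 9 each: Adgrl2 of 64, Camta1, a calmodulin-binding transcription activator, of 80, Gse1 of 107, Nr2f2 of 54 and Zfhx3, a zinc finger homeodomain factor, of 116. For these 5, in that order, 3.11, 3.63, 4.16, 3.05 and 5.37 would be expected. Efna5, an ephrin that guides retinal axons in the tectum, had 8 of 63, with 3.21 expected, in a tie with 3 more genes. Over all strong peaks the share was 5.18%. These genes were picked for their counts, so an excess over the expected counts follows partly from the choice.

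By chromosome the share of strong peaks that were alone ran from 4.19% on chromosome 16 (3.46 to 5.01) to 5.98% on chromosome 14 (5.20 to 6.83). Of 2358 windows of 1 Mb with a strong peak, 1586 had at least 1 peak alone, and the most was 16 of 198, at chr11:69000001-70000000, with no hotspot-free one among them. In the Ebf3 window, chr7:137000001-138000000, 12 of 79 strong peaks were alone (15.2%), and 7 of the 12 were hotspot-free. The Zic4 window, chr9:91000001-92000000, had 9 of 37 (24.3%), and 8 of the 9 were hotspot-free. Both windows hold the same peaks as the genes picked above for their counts. In another window, chr11:88000001-89000000, 13 of 146 were alone (8.90%), and 6 of the 13 were hotspot-free. Over all strong peaks 5.18% were alone and 0.343% hotspot-free.

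Genes of known cell types were examined in 19 lists, counting strong peaks in the gene and 50 kb either side, and the 5.18% and 0.343% given above are the values over all strong peaks. Of 30 midbrain and isthmus regulators, 29 had a strong replicate 1 peak within 1000 bp of a start, the exception being Foxa1. So had all autosomal genes of 4 more lists: 19 neural progenitor, 18 pan-neuronal, 16 cell cycle and 18 housekeeping genes. Among other cell types the count was 13 of 18 in the meninges and mesenchyme list, 11 of 14 in the neural crest list, 7 of 10 in the choroid plexus list, 12 of 20 in the forebrain and eye list, and 9 of 15 in each of the transmitter and glial lists. It was 8 of 16 for hindbrain regulators, 7 of 15 for keratinocyte, 6 of 15 for endothelial, 5 of 13 for erythroid, 4 of 15 for muscle, 3 of 15 for each of the liver and microglia lists, and 2 of 15 for germline genes. The same share over all protein-coding genes is not given here, so these counts do not show how unusual any list is. Peaks alone were 33 of the 471 strong peaks at midbrain regulators (7.01%, 4.87 to 9.70), and 29.7 would be expected from their values and positions. Otx2, the homeodomain factor that sets up the midbrain, had 4 of 20, and En2 had 3 of 24. Neural progenitor genes had 33 of 312 (10.6%, 7.39 to 14.5), with 17.4 expected, and these included 9 of 31 at Zic1, which lies next to Zic4, and 4 of 20 at Sox1. Pan-neuronal genes had 16 of 385 (4.16%, 2.39 to 6.66), with 20.6 expected, among them 3 of 57 at Rbfox3, the NeuN gene, and 2 of 51 at Celf4, an RNA-binding protein of neurons.

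Hotspot-free peaks near listed genes numbered 8 of 312 at neural progenitor genes (2.56%, 1.11 to 4.99), where 1.17 would be expected, and these 8 were those of the Zic1 and Zic4 locus. Pan-neuronal genes had 3 of 385 (0.779%, 0.161 to 2.26), with 1.42 expected, 2 of them at Celf4 and 1 at Stmn2, named after its value was seen. There were 6 at forebrain and eye regulators, where 14 of 164 strong peaks were alone (8.54%, 4.75 to 13.9). These 6 were 3.66% of the 164 (1.35 to 7.79), and 0.627 would be expected. Nkx2-1, a homeodomain factor of the ventral forebrain, had 3 of its 4 strong peaks among them. These had values of 21, 24 and 24, lay 9535 to 14515 bp downstream of the start, and stood 7630 to 12610 bp from the nearest replicate 2 peak, which had a value of 78. Bcl11b, a zinc finger factor of cortical projection neurons, had 1 of 25. The other 2 peaks were at Six3, a regulator of the eye and forebrain, with a value of 21, and at Dlx1 and Dlx2, regulators of inhibitory forebrain neurons, with 25. Six3, Dlx1 and Dlx2 are named here after their values were seen. For the Nkx2-1 start itself, no strong replicate 1 peak lay within 1000 bp, and the same held for 7 of the other forebrain and eye genes. Midbrain regulators had 4 of 471 hotspot-free peaks (0.849%, 0.232 to 2.16), with 1.85 expected, 1 each at En2 and Meis2 and 2 at Dmbx1, a homeodomain factor of the midbrain. Meis2, a TALE homeodomain factor, and Dmbx1 are likewise named after their values were seen. Whether cells of the forebrain had a part in these peaks was not tested.

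Lists of other cell types had few hotspot-free peaks or none. Housekeeping genes had 18 of 228 peaks alone (7.89%, 4.75 to 12.2), with 12.4 expected, and none was hotspot-free. Liver genes had 8 of 83 (9.64%, 4.25 to 18.1), with 4.04 expected, 4 of them at Foxa3, a forkhead factor of endoderm. Microglia genes had 5 of 134 (3.73%, 1.22 to 8.49), cell cycle genes 6 of 168 (3.57%, 1.32 to 7.61), with 3 at Aurkb, a mitotic kinase, and erythroid genes 7 of 109 (6.42%, 2.62 to 12.8), with 3 at Slc4a1, the anion exchanger of red cells. Endothelial, meningeal, choroid plexus, muscle, keratinocyte, germline, glial and transmitter lists had between 4.64% and 6.73%. Hindbrain and cerebellum regulators had 9 of 129 (6.98%) and neural crest genes 9 of 119 (7.56%), each with 1 hotspot-free peak. Hotspot-free peaks were at 0 in each of the endothelial, microglia, erythroid, meningeal, choroid plexus, muscle, keratinocyte, liver, germline, cell cycle, housekeeping, glial and transmitter lists. At the few strong peaks of these lists, from 83 in the liver list to 228 in the housekeeping list, between 0.195 and 0.591 would be expected.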

How the data were processed

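DNase-seq maps DNase I cuts in chromatin. Per the labels, each replicate's lists are on mm10. The aligner is not given in the sources used here, nor is the peak caller. The authors deposited 150 bp peaks, each with a whole-number signal of no stated scale (narrowPeak, per the notes deposited with the files), and hotspots with a −log10 q value of up to 100, the deposited cap. The lists are per replicate, so read depth is unknown.

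Repeated entries (77 in replicate 1, 36 in replicate 2) were counted once. Gaps, overlaps and shares were computed in Python 3.11.15 with numpy 2.4.6, pandas 2.3.3, scipy 1.17.1 and numba 0.67.0, and plotted with matplotlib 3.10.9; the functions were tested on simulated peaks. Starts are protein-coding transcript starts of GENCODE M21, sequence and repeat masking are of RefSeq GRCm38.p6, and 31-base words were counted genome-wide. Shared strong peaks, weighted to the same values, served for comparison, with exact binomial intervals for counts and SE for weighted shares. No p-value was computed: the values chose the peaks, and 1 group of 2 samples allows no test. Expected counts use 6 value classes, near and far from starts.

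The peaks, gene lists and motifs were chosen with earlier results of these data known. Named were the 12 highest peaks alone, the 12 highest near starts, the 8 highest hotspot-free, the 8 genes nearest to most peaks and up to 2 genes per list; exceptions are marked in the text. Alternatives changed the value threshold, the overlap that counts as shared, distances, start definition, masking share, chromosomes and weighting.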

Additional observations from a re-analysis of the deposited data

How the results depend on the processing

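With the threshold at values above 30 there were 1521 peaks alone (2.86% of strong peaks), of which 99.9% had a replicate 2 peak within 1000 bp, 99.6% a replicate 2 hotspot and 64.9% a start within 1000 bp. With a replicate 2 peak within 150 bp also counted as shared, 1895 remained (2.26%), 85.8% of them in a hotspot, 59.3% near a start and 1.53% masked over at least 50% of their bases. With only an overlap of at least 75 bp counted as shared, 8525 were alone (10.2%). With chromosomes X and Y added there were 4408 (5.14%). A replicate 2 peak was within 500 bp of 93.8% and within 2000 bp of 97.3%, and the hotspot covered the whole of 89.9%. Near a start were 36.8% within 500 bp, 57.3% within 2000 bp and 42.4% with gene 5′ ends alone. Any masked base gave 40.7%, and every base masked 0%. The excess of peaks alone near starts, 33.7 percentage points over the weighted shared peaks, was 22.9 without weighting and 22.8 with weighting also to the number of peaks in the hotspot, chosen after seeing the data. The difference in masked peaks was −0.564 points, changed sign to 0.0799 without weighting and was −0.191 with the added weighting. Of the 27 alternative values, 22 moved a value beyond its counting interval or by over 1.5 times, 1 reversed a sign and 4 did neither; where the alternative itself did not set the change, the cause was not tested. No value exists without replicate 1 or without replicate 2, since the choice of peaks needs both. No paired analysis was possible because there is 1 group. Depth is unknown, so a site not called in replicate 2 is not shown to be closed there.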
